A study of Homo sapiens with 12 samples.

Results

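Genes of glucose uptake, glycolysis and glycogen metabolism were followed across 4 groups of MRC5 cells, a human embryonic lung fibroblast line. The set held 33 of the 57500 genes of the count table. They were chosen by gene symbol for their function, with earlier results of these data known. Among them were 5 glucose transporters, 3 hexokinases and glucose-6-phosphate isomerase with 3 phosphofructokinases. The others were 4 enzymes of fructose 2,6-bisphosphate, 10 enzymes from aldolase to pyruvate kinase and 7 glycogen enzymes. Positions given with a gene are GRCh38 from GENCODE v44. A repeated symbol was taken as the identifier with the highest total count. Each of the 33 genes passed the filter on low counts.

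Glucose enters the cell through carriers of the SLC2A (GLUT) family and is trapped as glucose 6-phosphate by hexokinases. Glycolysis splits it into pyruvate, which is reduced to lactate or carried into mitochondria, while phosphoglucomutase, UDP-glucose pyrophosphorylase and glycogen synthase store it as glycogen and glycogen phosphorylase releases it again. Many of these genes exist as isozymes with different tissue ranges and regulation, and several are classic targets of the hypoxia-inducible factor and of MYC.

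The groups were proliferating cells (Prol), cells made senescent by X-rays (Sen(IR)), and such senescent cells cultured with UK5099, an inhibitor of the mitochondrial pyruvate carrier (Sen(IR)+UK5099), or with CTPI2, an inhibitor of the mitochondrial citrate carrier SLC25A1 (Sen(IR)+CTPI2), with 3 RNA sequencing libraries each. Irradiation was with 20 Gy, cells were collected 10 to 12 days later, and inhibitors were added 1 day after irradiation. UK5099 was used at 100 μM, whereas CTPI2 was used at 15 or 30 μM, with the amount in the sequenced cultures not given, so the amounts of the inhibitors differed. All cells were of 1 line, grown under atmospheric oxygen, and both inhibitor groups were compared with the same Sen(IR) libraries.

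Total counts ran from 20597736 to 28245693 per library. Levels are given as CPM, counts scaled to a common library total after TMM normalization, and a gene was called changed when edgeR's quasi-likelihood test gave a Benjamini-Hochberg adjusted p below 0.05 over the 16251 genes tested and the log2 fold change lay beyond 0.5 in either direction. The labels do not say whether the 3 libraries of a group came from separate cultures, so the p-values measure the spread between these libraries. The 9 fibroblast markers were all detected, and summed to 21298 to 25338 CPM across the Prol libraries, 20550.2 to 21131 across those of Sen(IR), 10895 to 11387 across those given UK5099 and 18149 to 19925 across those given CTPI2. With UK5099, 5 of the 9 (COL1A1, COL1A2, COL3A1, PDGFRA and THY1) were lower than in Sen(IR) and LUM, DCN, PDGFRB and VIM were not called. Of the defining markers of other cell types, KRT5, CDH5, CD3E, MYOG and ACTA1 had no or almost no counts, whereas the endothelial receptor gene TEK was at 172 to 360.1 CPM on average in the groups. Over the 12 libraries the epithelial list summed to 0.901 to 2.04 CPM, the leukocyte list to 0.945 to 6.81, the skeletal muscle list to 0.0775 to 0.563 and the neuron list to 16.2 to 47.3. The endothelial list, nearly all of it TEK, summed to between 354 and 366 CPM in the libraries of Sen(IR), between 299 and 329 CPM in those given CTPI2, between 206 and 236 CPM in those given UK5099, and between 154 and 199.98 CPM in Prol. Many of the 25 genes on these 5 lists had too few counts to test. Tested were 2 of 5 epithelial, 2 of 4 endothelial, 2 of 5 leukocyte, 0 of 6 skeletal muscle and 3 of 5 neuron genes. Among the tested genes UK5099 against Sen(IR) called 2 higher and 1 lower, beside 8.76% and 12.1% of all genes tested. Sen(IR) against Prol called 4 of the tested genes higher (TEK, CD14, CD68 and MAP2), beside 24.8% of all genes tested. CD14 was at a mean of 0.192 CPM in Prol and 3.32 in Sen(IR). Of the fibroblast markers, COL1A2 and THY1 were higher and VIM lower in Sen(IR) than in Prol. The part of these markers in the results below was not tested. In bulk libraries, fewer cells with a transcript and less of it per cell cannot be told apart.

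In Sen(IR) against Prol, 9 of the 33 genes were higher, beside 24.8% of all genes tested, and 3 were lower, beside 22.4%. Their median log2 fold change was 0.11, against 0.0139 over all genes. In Sen(IR)+UK5099 against Sen(IR), 12 of the 33 were lower, beside 12.1% of all genes, and 4 were higher, beside 8.76%, with a median of -0.24 against 0.00991. The 12 lowered genes were 36.4% of the set. In Sen(IR)+CTPI2 against Sen(IR), 1 of the 33 was higher, beside 0.0185% of all genes, and 0 were lower by edgeR, beside 0.148%. By edgeR 5 of the 33 had an unadjusted p below 0.05, beside 1182 of the 16251 genes tested. The DESeq2 Wald test also called 1. UK5099 against CTPI2 gave 11 lower, beside 11.7%, and 3 higher, beside 8.2%. UK5099-treated senescent cells against Prol gave 6 higher, beside 26.9%, and 9 lower, beside 26.2%, and with upper-quartile scaling, which moved the median of all genes by 0.14, 9 were higher and 6 lower. Libraries of Sen(IR) and Prol did not overlap for 24 of the 33 genes, and those of Sen(IR) with and without UK5099 for 27, beside 70.9% and 56.6% of all genes tested.

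Together the 33 genes held 1.12 ± 0.0459% of the library counts in Prol, 1.11 ± 0.00566% in Sen(IR), 0.86 ± 0.0227% with UK5099 and 1.14 ± 0.0345% with CTPI2 (SD, n = 3). Per kilobase of exon, GAPDH had the highest level in each group, and in Sen(IR) it was followed by PKM, ALDOA and ENO1, at 1342 ± 13, 287 ± 1.81, 281 ± 2.4 and 177 ± 3.43 CPM per kilobase. In Prol the order after GAPDH was ENO1, PKM and TPI1, with ENO1 at 343 ± 14.4 and PKM at 279 ± 11.2 CPM per kilobase. HKDC1, ENO3 and PFKFB2 were the lowest in Sen(IR), each under 1 CPM per kilobase, at 0.792 ± 0.208, 0.789 ± 0.165 and 0.811 ± 0.0522.

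**Figure D1:**
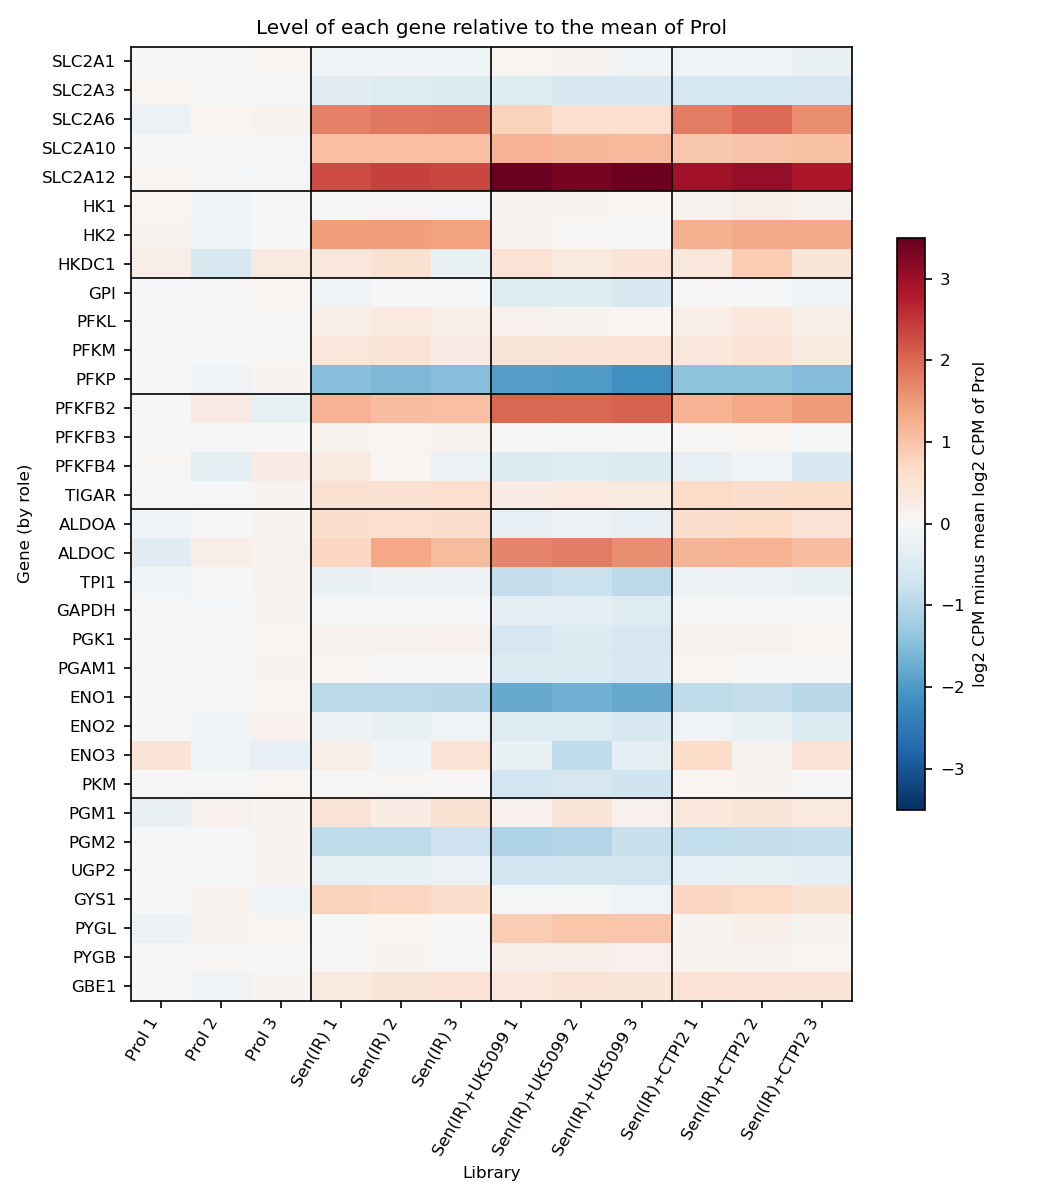
Level of the 33 genes in each of the 12 libraries as log2 CPM minus the mean log2 CPM of Prol for the same gene (colour scale), with genes in rows by role and horizontal lines between roles. SLC2A12 is the darkest red row and ENO1 and PFKP are blue in every irradiated library, while HK2 is red in Sen(IR) and with CTPI2 and near white with UK5099.

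**Figure D2:**
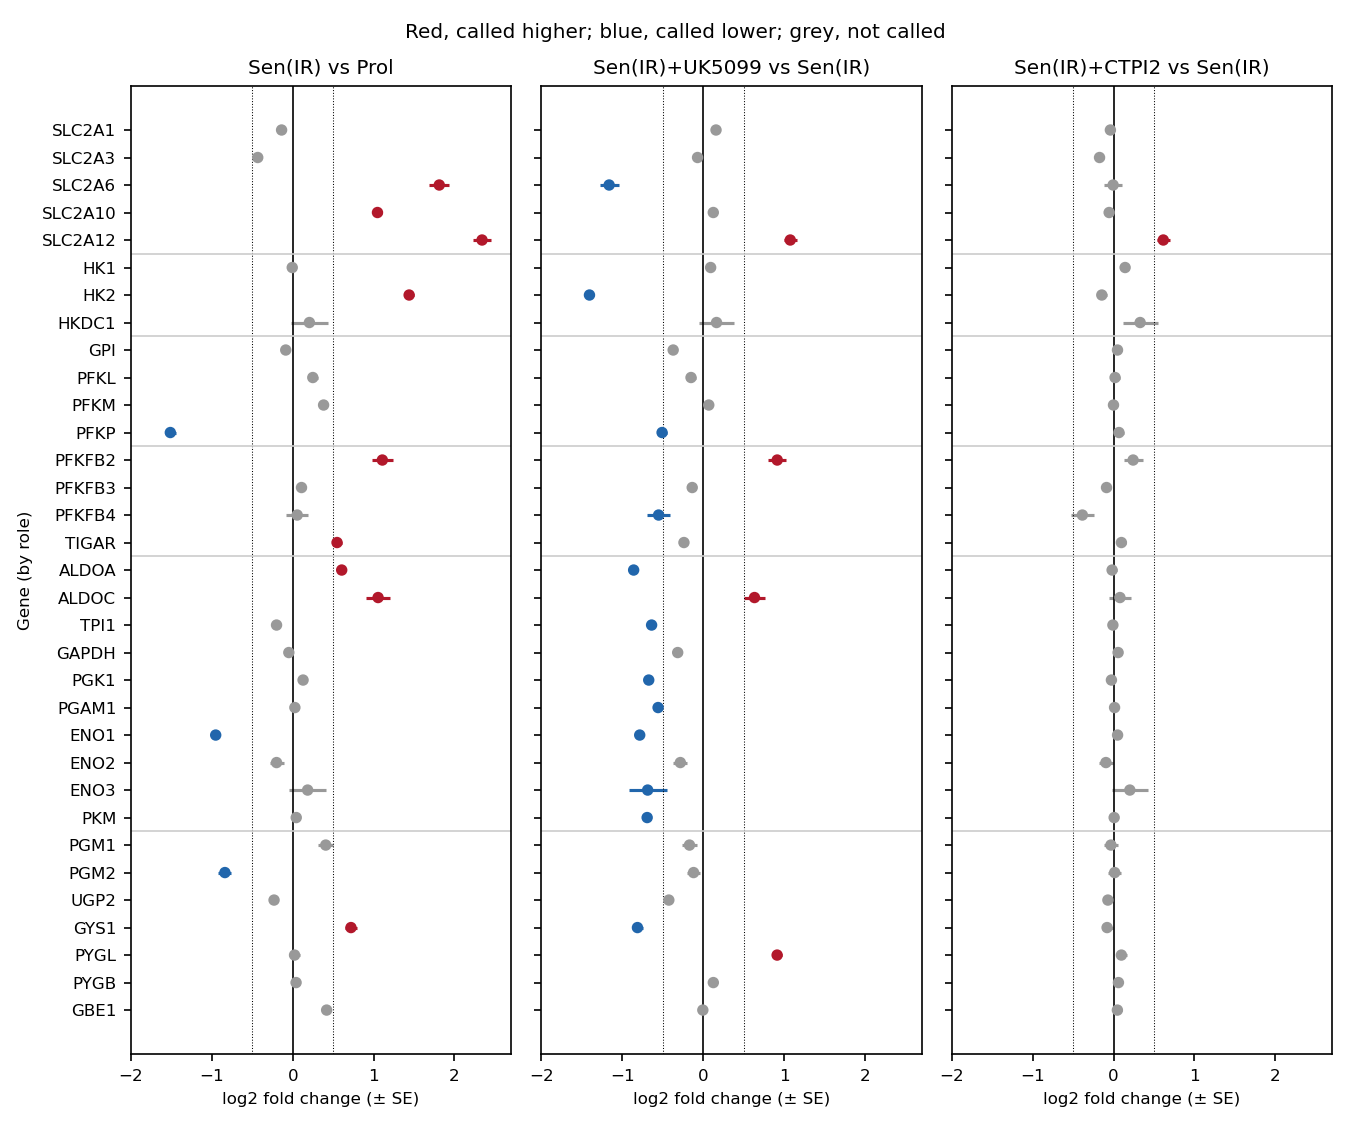
log2 fold changes with SE (horizontal lines) of the 33 genes in 3 comparisons, with dotted lines at 0.5 in either direction and colours for the call. With UK5099 12 genes lie on the lower side and 4 on the higher side, and with CTPI2 SLC2A12 alone is coloured.

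Promoters of members that moved together with UK5099 are shown first, since several of these genes are described as targets of the hypoxia-inducible factor, which binds the letters ACGTG. RefSeq (GRCh38.p14) lists promoters for 31 of the 33 genes (SLC2A3 and PFKFB2 were not matched). The 250 bases before each start were searched for ACGTG on both strands; CACGTG, the E-box bound by MYC and by the glucose-sensing MondoA family, contains it on both strands and counts as 2 matches. ACGTG stood before at least 1 start of 17 of the 31 genes (54.8%), beside 21.7% of all 27305 genes with a promoter. Among genes lowered with UK5099 it was found for 5 of 12 (HK2, PFKP, ALDOA, TPI1 and PGK1), among those raised for 1 of 3 (ALDOC), and among those not called for 11 of 16. Genes differ in their number of starts. Counted per window, the share was 36.4% for the set beside 18.5% for all genes. It was 40% for genes lowered with UK5099 and 34.4% for those not called, so the order of these groups turned with the way of counting. Shown are 3 of the lowered genes with a match, and PYGL, which was raised and has no match. Each is given as the 250 bases before a start whose window holds no annotated exon. They do not stand for their groups. The lowered genes ENO1, PKM, PGAM1, GYS1, ENO3, SLC2A6 and PFKFB4 had no match, and the raised ALDOC had 3. Capitals mark ACGTG or its complement CACGT. PGK1 lies at chrX:78103998-78104247 (plus strand), HK2 at chr2:74834920-74835169 (plus strand, before a second start within the gene), ALDOA at chr16:30065510-30065759 (plus strand) and PYGL at chr14:50944484-50944733 (minus strand).
PGK1: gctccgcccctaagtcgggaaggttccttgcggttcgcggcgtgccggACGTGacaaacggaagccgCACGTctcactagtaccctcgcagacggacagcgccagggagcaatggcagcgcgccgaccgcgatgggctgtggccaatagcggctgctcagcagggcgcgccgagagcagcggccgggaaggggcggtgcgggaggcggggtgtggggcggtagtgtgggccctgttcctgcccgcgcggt
HK2: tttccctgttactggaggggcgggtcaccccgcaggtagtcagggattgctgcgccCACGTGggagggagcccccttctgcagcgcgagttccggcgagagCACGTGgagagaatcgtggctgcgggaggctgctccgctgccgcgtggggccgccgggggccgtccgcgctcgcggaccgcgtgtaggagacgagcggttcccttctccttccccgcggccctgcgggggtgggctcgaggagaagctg
ALDOA: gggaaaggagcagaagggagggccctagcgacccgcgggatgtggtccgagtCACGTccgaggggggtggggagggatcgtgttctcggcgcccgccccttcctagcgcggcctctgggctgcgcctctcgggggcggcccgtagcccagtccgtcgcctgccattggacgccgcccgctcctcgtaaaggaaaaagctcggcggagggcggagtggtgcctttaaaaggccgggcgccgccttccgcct
PYGL: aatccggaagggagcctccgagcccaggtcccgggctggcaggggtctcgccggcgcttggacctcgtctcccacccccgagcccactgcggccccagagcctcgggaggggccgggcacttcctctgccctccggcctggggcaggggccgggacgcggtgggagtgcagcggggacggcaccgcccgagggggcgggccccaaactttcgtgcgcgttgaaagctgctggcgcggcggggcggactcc
PGK1 carries 2 separate matches, HK2 carries CACGTG in 2 places (4 matches), ALDOA carries 1 match and PYGL none. These matches describe the letters only, and binding was not measured in these libraries.

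Glucose transporters changed in different directions. In senescent cells 3 of the 5 rose (SLC2A6, SLC2A10 and SLC2A12), beside 24.8% of all genes tested. SLC2A1, the widely expressed carrier of basal uptake (GLUT1), and SLC2A3, the high-affinity carrier (GLUT3), were not called. SLC2A12 (GLUT12, ENSG00000146411, chromosome 6, 133987581 to 134052624, minus strand) was at 3.28, 3.01 and 3.05 CPM in the 3 Prol libraries, 15.3, 16.4 and 15.6 in Sen(IR), 34.4, 31.6 and 33.9 with UK5099 and 24, 26.4 and 22 with CTPI2. The 4 groups did not overlap, with Prol lowest and UK5099 highest. Its log2 fold change was 2.34 (SE 0.106, edgeR adjusted p 8.36e-15) in Sen(IR) against Prol, 1.08 (SE 0.0805, edgeR adjusted p 2.50e-10) with UK5099 and 0.61 (SE 0.0824, edgeR adjusted p 2.22e-04) with CTPI2. It was the 1 member of the set called with CTPI2, and the difference between UK5099 and CTPI2 was 0.46 (SE 0.0768, edgeR adjusted p 3.90e-05), below the fold limit. The exons of SLC2A12 share 51.18% of their bases with TBPL1 on the opposite strand. TBPL1 had log2 fold changes of 0.17, 0.11 and -0.10 in the same 3 comparisons (edgeR adjusted p 0.063, 0.26 and 0.87). It gave 0.22 for UK5099 against CTPI2 (edgeR adjusted p 0.03) and 0.29 for UK5099 against Prol (edgeR adjusted p 0.0027). Mean levels of TBPL1 were 28.5 CPM in Prol, 32.2 in Sen(IR), 34.9 with UK5099 and 29.98 with CTPI2. Other overlaps above 10% of exon bases were those of ALDOA (54.24%), TIGAR (19.4%), GAPDH (17.61%) and ALDOC (11.33%), whose partners had means of at most 0.0622 CPM where counted.

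SLC2A6 (ENSG00000160326, chromosome 9, 133471094 to 133479127, minus strand), a lysosomal member of the family that is induced in inflammation, was at 3.33, 4.04 and 4.2 CPM in the 3 Prol libraries, 12.9, 13.8 and 14 in Sen(IR), 6.67, 5.82 and 5.74 with UK5099 and 13.3, 15.3 and 11.9 with CTPI2. Sen(IR) and CTPI2 overlapped, UK5099 lay between them and Prol, and no UK5099 library reached Sen(IR). SLC2A6 rose in senescence by a log2 fold change of 1.81 (SE 0.125, edgeR adjusted p 1.48e-11) and fell with UK5099 by a log2 fold change of -1.16 (SE 0.117, edgeR adjusted p 3.26e-08), and it stayed above Prol at a log2 fold change of 0.65 (SE 0.134, edgeR adjusted p 1.59e-04). SLC2A10 (GLUT10, mutated in arterial tortuosity) was at 60.5, 62.9 and 59.2 CPM in the 3 Prol libraries, 125, 127 and 125 in Sen(IR), 141, 137 and 133 with UK5099 and 118, 122 and 124 with CTPI2, so that every irradiated library lay above Prol. Its log2 fold change was 1.05 (SE 0.0505, edgeR adjusted p 2.49e-14) in senescence and 0.13 (SE 0.0487, edgeR adjusted p 0.04) with UK5099, the latter below the fold limit.

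SLC2A1 was at 415, 408 and 439 CPM in the 3 Prol libraries, 386, 384 and 377 in Sen(IR), 438, 448 and 396 with UK5099 and 378, 387 and 351 with CTPI2. SLC2A3 was at 103, 96.2 and 96.8 CPM in the 3 Prol libraries, 76.5, 71.6 and 71.5 in Sen(IR), 74, 66.9 and 68.6 with UK5099 and 65, 64.2 and 65.6 with CTPI2. Measured as the ratio of the highest to the lowest library, both varied less than the 3 carriers above. SLC2A3 had a log2 fold change of -0.43 (SE 0.0556, edgeR adjusted p 4.09e-07) in Sen(IR) against Prol and of -0.50 (SE 0.0553, edgeR adjusted p 3.18e-08) in UK5099-treated cells against Prol, where it just passed the fold limit and missed it after leaving out Prol replicate 1 or UK5099 replicate 2 or 3, with RLE or upper-quartile scaling and by DESeq2. Per exon length, SLC2A1 made up 69.5 ± 1.12% of the summed level of the 5 carriers in Prol and 57.5 ± 0.183% in Sen(IR), and SLC2A10 went from 13.8 ± 0.721% to 25.9 ± 0.227% (SD, n = 3, two-sided exact permutation test p = 0.1, the smallest that 3 against 3 libraries allow).

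Among the hexokinases, HK2 alone was called. HK2 (ENSG00000159399, chromosome 2, 74834127 to 74893359, plus strand), the inducible and mitochondria-binding hexokinase, was at 79.2, 65.8 and 73 CPM in the 3 Prol libraries, 201, 199 and 192 in Sen(IR), 78.7, 74.3 and 70.3 with UK5099 and 171, 183 and 181 with CTPI2. Its libraries in Sen(IR) and with CTPI2 all lay above 72.7 CPM, the mean of Prol, by more than 2-fold, and those with UK5099 overlapped Prol. HK2 rose by a log2 fold change of 1.44 (SE 0.0623, edgeR adjusted p 3.69e-15) in senescence, fell with UK5099 with a log2 fold change of -1.41 (SE 0.0621, edgeR adjusted p 2.70e-14), and differed from Prol by a log2 fold change of 0.034 (SE 0.0629, edgeR adjusted p 0.63) in UK5099-treated cells. UK5099 against CTPI2 gave a log2 fold change of -1.26 (SE 0.0619, edgeR adjusted p 2.15e-13). HK1, the constitutive hexokinase, spanned 178 to 203 CPM in Prol and 207 to 219 CPM with CTPI2 and was not called in any comparison, nor was HKDC1, at 2.89 to 4.2 CPM on average.

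The makeup of the step differed among groups. HK2 was 30.04 ± 0.562% of the summed hexokinase level per exon length in Prol, 53.8 ± 0.66% in Sen(IR), 29.2 ± 1.06% with UK5099 and 48.8 ± 0.764% with CTPI2. The order of HK1 and HK2 in Sen(IR) depended on the length used. By the exon union HK1 was 44.9 ± 0.614% there, below HK2, whereas by the longest transcript HK1 was 57.1% and HK2 41.9%, and HK1 then exceeded HK2 in each of the 4 groups. In Prol and with UK5099 HK1 exceeded HK2 by either length. Shares of HK2 did not overlap between Sen(IR) and Prol or between Sen(IR) with and without UK5099 (exact permutation p = 0.1 each, the smallest possible), and the summed level of the step went from 40.9 ± 3.13 to 61.9 ± 1.53 and 43.1 ± 0.973 CPM per kilobase in Prol, Sen(IR) and Sen(IR)+UK5099.

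Of the isomerase and the phosphofructokinases, which catalyse the committed step of glycolysis, PFKP alone was called. PFKP (ENSG00000067057, chromosome 10, 3066333 to 3137718, plus strand), the platelet-type isozyme common in proliferating cells, was at 247, 225 and 260.1 CPM in the 3 Prol libraries, 87.9, 81.9 and 86.8 in Sen(IR), 64.1, 61.8 and 54.6 with UK5099 and 92, 91.7 and 84.9 with CTPI2. All irradiated libraries lay below Prol and those with UK5099 lay lowest. PFKP fell with a log2 fold change of -1.51 (SE 0.0646, edgeR adjusted p 2.93e-15) in senescence. With UK5099 it was -0.51 (SE 0.0661, edgeR adjusted p 1.53e-06), just past the fold limit, and was not called after leaving out Sen(IR) replicate 1 (-0.487), Sen(IR) replicate 3 (-0.497) or UK5099 replicate 3 (-0.443), or with upper-quartile scaling (-0.489). PFKM, the muscle type, and PFKL, the liver type, had log2 fold changes of 0.38 (SE 0.0583) and 0.25 (SE 0.0594) in senescence, below the fold limit. Per exon length PFKP went from 63.9 ± 1.22% of the phosphofructokinase level in Prol to 33.2 ± 1.93% in Sen(IR) and 26.1 ± 1.55% with UK5099, and PFKM from 19.98 ± 0.633% to 38.5 ± 1.5% and 45.3 ± 1.72%. GPI, the isomerase before this step, was at 204, 210.2 and 219 CPM in the 3 Prol libraries, 195, 201 and 201 in Sen(IR), 157, 158 and 146 with UK5099 and 216, 206 and 194 with CTPI2. Its UK5099 libraries lay below all others, with a log2 fold change of -0.37 (SE 0.0522, edgeR adjusted p 4.43e-06) that did not pass the fold limit.

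Enzymes that make or remove fructose 2,6-bisphosphate, the activator of phosphofructokinase, split by isozyme. PFKFB2, the phosphorylation-regulated heart type, was at 3.75, 4.64 and 3.16 CPM in the 3 Prol libraries, 8.85, 8.06 and 7.85 in Sen(IR), 15.5, 15.2 and 16 with UK5099 and 8.86, 9.78 and 10.7 with CTPI2. Prol was lowest and UK5099 highest without overlap, with log2 fold changes of 1.11 (SE 0.132, edgeR adjusted p 1.36e-07) in senescence and 0.92 (SE 0.113, edgeR adjusted p 6.90e-07) with UK5099. PFKFB3, the isozyme with the strongest kinase activity, was not called anywhere and spanned 66.2 to 68.8 in Prol, 71 to 74.3 in Sen(IR) and 64.7 to 67.6 CPM with UK5099. PFKFB4 was at 14.8, 11.4 and 17.3 CPM in the 3 Prol libraries, 17.7, 15 and 12.4 in Sen(IR), 10.2, 10.5 and 10.2 with UK5099 and 11.7, 13.2 and 9.7 with CTPI2, with wide spread among the untreated libraries. It fell with UK5099 (-0.55 in log2 units, SE 0.141, edgeR adjusted p 0.0029), a call that was lost without Sen(IR) replicate 1 (-0.41). TIGAR, the p53-induced phosphatase that lowers fructose 2,6-bisphosphate, was at 43.2, 42.5 and 46.7 CPM in the 3 Prol libraries, 64.3, 63.5 and 66.1 in Sen(IR), 52.9, 56.2 and 55.2 with UK5099 and 69.9, 67.8 and 69.5 with CTPI2, above Prol in each irradiated library. TIGAR rose by a log2 fold change of 0.55 (SE 0.0565, edgeR adjusted p 1.31e-08) in senescence, and with UK5099 its log2 fold change was -0.24 (SE 0.0557, edgeR adjusted p 0.0014), below the fold limit.

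From aldolase to pyruvate kinase, 7 of the 10 genes fell with UK5099, beside 12.1% of all genes tested, and 1 rose, beside 8.76%. For all 10 the UK5099 libraries lay entirely above or below those of Sen(IR), as they did for 56.6% of all genes tested. In senescence itself 2 of the 10 rose (ALDOA and ALDOC), beside 24.8% of all genes, and 1 fell (ENO1), beside 22.4%. The median log2 fold change of the 10 was 0.035 in senescence and -0.66 with UK5099. ALDOA (ENSG00000149925, chromosome 16, 30064164 to 30070457, plus strand), the main aldolase of these cells, was at 664, 698 and 759 CPM in the 3 Prol libraries, 1077, 1066 and 1084 in Sen(IR), 578, 627 and 574 with UK5099 and 1083, 1104 and 999 with CTPI2. Sen(IR) and CTPI2 lay above Prol in every library, and UK5099 lay below it. ALDOA rose by a log2 fold change of 0.61 (SE 0.0547, edgeR adjusted p 1.50e-09) in senescence and fell with UK5099 with a log2 fold change of -0.86 (SE 0.055, edgeR adjusted p 1.75e-11). ALDOC, the brain-type aldolase, rose in both comparisons, 1.06 (SE 0.151, edgeR adjusted p 1.93e-06) and 0.63 (SE 0.133, edgeR adjusted p 4.49e-04), with 3.58 to 5.45 CPM in the Prol libraries, 7.7 to 11.8 CPM in those of Sen(IR) and 14.3 to 16.1 CPM in those given UK5099. The second of these calls was lost without Sen(IR) replicate 1 (0.48), and per exon length ALDOC was 3.63 ± 0.0975% of the aldolase level with UK5099.

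ENO1 (ENSG00000074800, chromosome 1, 8861000 to 8879190, minus strand), the main enolase, was at 1764, 1731 and 1874 CPM in the 3 Prol libraries, 930.2, 940.2 and 906 in Sen(IR), 529, 555 and 528 with UK5099 and 972, 995 and 905 with CTPI2. Prol was highest and UK5099 lowest, without overlap. It fell in each step, by a log2 fold change of -0.95 (SE 0.0491, edgeR adjusted p 8.39e-14) in senescence and -0.78 (SE 0.0491, edgeR adjusted p 1.25e-11) with UK5099, and had a log2 fold change of -1.74 (SE 0.0501, edgeR adjusted p 2.03e-18) from Prol to UK5099-treated cells. ENO1 held 97.7 ± 0.139% of the enolase level per exon length in Prol and 94.7 ± 0.194% with UK5099. ENO2, the neuronal enolase, had a log2 fold change of -0.28 (SE 0.0881, edgeR adjusted p 0.012) with UK5099, under the fold limit. ENO3, the muscle enolase, was near the detection range at 3.34, 2.7 and 4.12 CPM in the Sen(IR) libraries and 2.48, 1.56 and 2.29 CPM in those given UK5099, and its call (-0.69 in log2 units, SE 0.234, edgeR adjusted p 0.02) was lost without Sen(IR) replicate 3 or UK5099 replicate 2 (edgeR adjusted p up to 0.119).

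PKM, pyruvate kinase of most tissues, was at 2369.8, 2305 and 2493 CPM in the 3 Prol libraries, 2474, 2469.7 and 2445 in Sen(IR), 1515, 1579 and 1479 with UK5099 and 2513, 2544 and 2367 with CTPI2. The 9 libraries without UK5099 overlapped, and the 3 with UK5099 lay far below them. Its log2 fold change was 0.044 (SE 0.0467, edgeR adjusted p 0.41) in senescence and -0.69 (SE 0.0469, edgeR adjusted p 4.80e-11) with UK5099. Counts per gene do not tell its splice forms M1 and M2 apart. PGK1, phosphoglycerate kinase, was at 412, 428 and 451 CPM in the 3 Prol libraries, 466, 469.9 and 475 in Sen(IR), 289, 308 and 288 with UK5099 and 466, 471 and 447 with CTPI2 and fell with UK5099 with a log2 fold change of -0.67 (SE 0.0484, edgeR adjusted p 1.30e-10). TPI1, triosephosphate isomerase, was at 475, 495 and 541 CPM in the 3 Prol libraries, 425, 443 and 448 in Sen(IR), 280.3, 299 and 267 with UK5099 and 442, 439 and 427 with CTPI2 and fell with a log2 fold change of -0.64 (SE 0.0539, edgeR adjusted p 1.97e-09). PGAM1, phosphoglycerate mutase, was at 285, 291 and 317 CPM in the 3 Prol libraries, 309.6, 299 and 302 in Sen(IR), 208, 207 and 203 with UK5099 and 313, 303 and 302 with CTPI2 and fell with a log2 fold change of -0.56 (SE 0.0488, edgeR adjusted p 3.48e-09). For these 3 genes the UK5099 libraries lay below all others, while Sen(IR) against Prol gave 0.13, -0.20 and 0.027, none called. GAPDH, often used as a reference gene, was at 3181, 3237 and 3549.9 CPM in the 3 Prol libraries, 3250.2, 3197 and 3196 in Sen(IR), 2599.7, 2669 and 2485 with UK5099 and 3379.9, 3363 and 3279.7 with CTPI2. It moved in the same direction with UK5099, -0.31 (SE 0.0479, edgeR adjusted p 1.22e-05), but less than the fold limit. Processed pseudogenes resemble GAPDH, PGK1, TPI1, ENO1 and PGAM1, so reads shared with them are uncertain where only unique reads were counted.

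**Figure D3:**
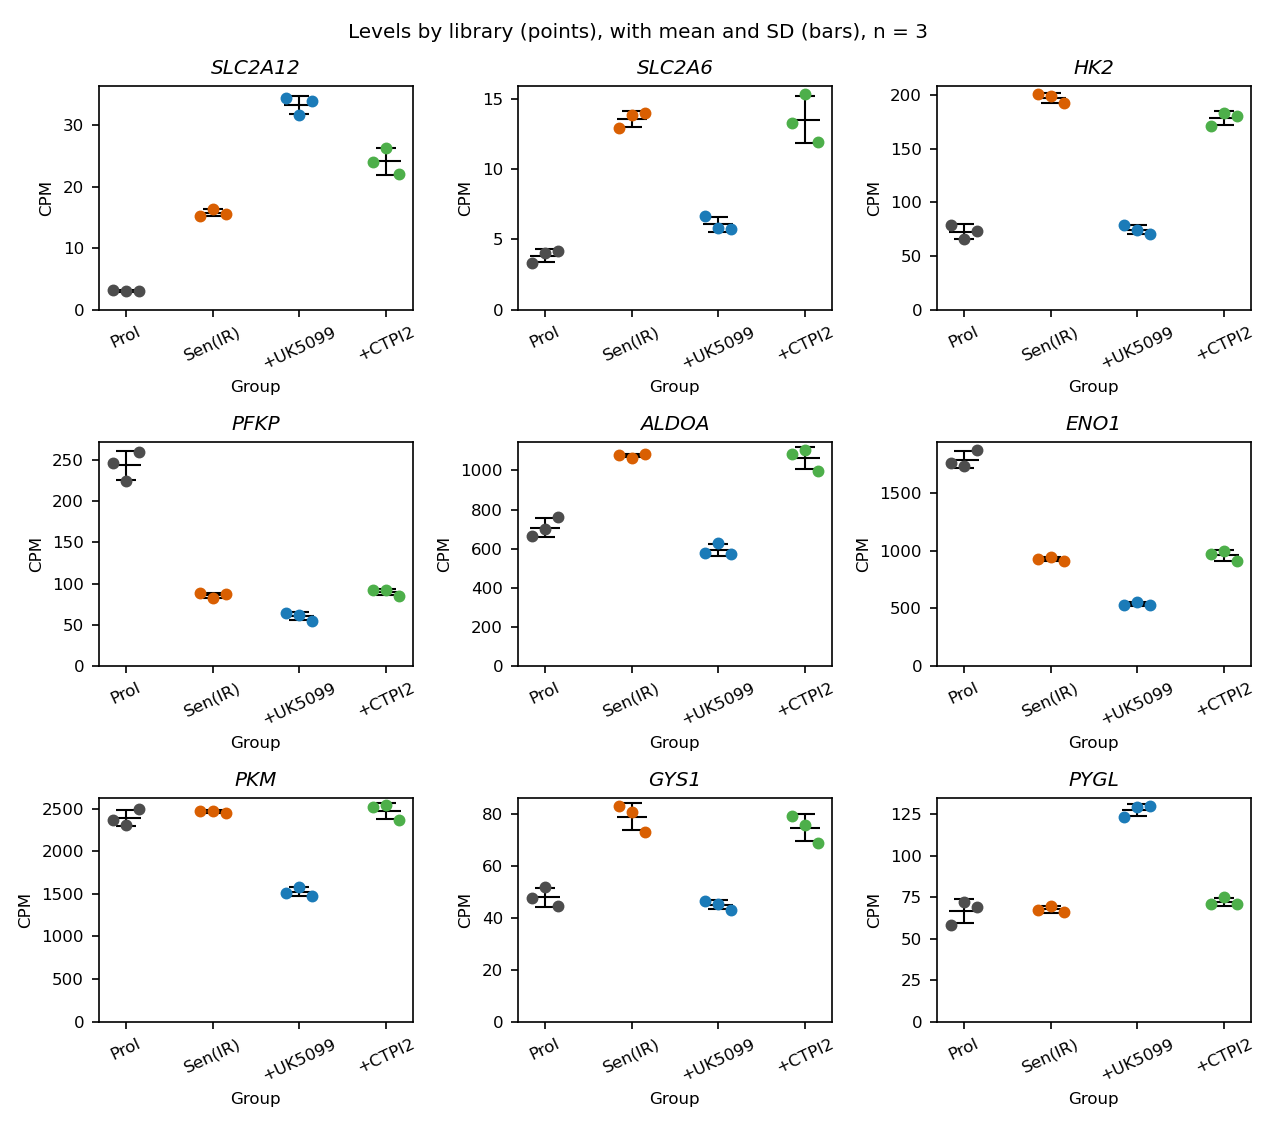
CPM by library (points) with mean and SD (bars, n = 3) for 9 genes in the 4 groups, each panel on its own linear axis from 0. HK2, ALDOA and GYS1 are high in Sen(IR) and with CTPI2 and return to or below the Prol level with UK5099, PYGL is highest with UK5099, and SLC2A12 differs among all groups.

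Of the 7 glycogen genes, GYS1 fell and PYGL rose with UK5099 and the other 5 were not called. GYS1 (ENSG00000104812, chromosome 19, 48968130 to 48993310, minus strand), the glycogen synthase of non-liver tissue, was at 47.6, 51.9 and 44.5 CPM in the 3 Prol libraries, 82.9, 80.8 and 73.1 in Sen(IR), 46.4, 45.4 and 43.1 with UK5099 and 79.2, 75.9 and 68.9 with CTPI2. Sen(IR) and CTPI2 lay above Prol, and the UK5099 libraries overlapped Prol. GYS1 rose by a log2 fold change of 0.72 (SE 0.069, edgeR adjusted p 3.87e-09) in senescence, fell with UK5099 with a log2 fold change of -0.81 (SE 0.0691, edgeR adjusted p 2.15e-09), and differed from Prol by a log2 fold change of -0.092 (SE 0.0701, edgeR adjusted p 0.24) in UK5099-treated cells. PYGL (ENSG00000100504, chromosome 14, 50857891 to 50944483, minus strand), the liver-type glycogen phosphorylase that releases glucose 1-phosphate, was at 58.6, 72.3 and 68.9 CPM in the 3 Prol libraries, 67.5, 69.6 and 66 in Sen(IR), 123, 129.6 and 129.8 with UK5099 and 71.3, 75 and 70.7 with CTPI2. Its 3 UK5099 libraries stood apart from the other 9. PYGL rose with UK5099 by a log2 fold change of 0.91 (SE 0.0639, edgeR adjusted p 8.06e-11), beside log2 fold changes of 0.023 in senescence and 0.096 with CTPI2. PYGB, the brain-type phosphorylase, had a log2 fold change of 0.13 (SE 0.0484, edgeR adjusted p 0.038) with UK5099, under the fold limit, and PYGL went from 35.6 ± 0.241% to 48.8 ± 0.909% of the phosphorylase level per exon length (exact permutation p = 0.1, the smallest possible).

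The other glycogen enzymes moved less. PGM2 (phosphopentomutase, which also converts glucose phosphates) fell in senescence with a log2 fold change of -0.84 (SE 0.0801, edgeR adjusted p 3.81e-09), with 41.2, 41.4 and 45.8 CPM in the Prol libraries and 23, 22.9 and 26 CPM in those of Sen(IR), beside a log2 fold change of -0.12 with UK5099. UGP2, which makes UDP-glucose, was at 151, 152 and 169 CPM in the 3 Prol libraries, 132, 134 and 137 in Sen(IR), 98.4, 101 and 101 with UK5099 and 129, 130.2 and 124 with CTPI2. Its UK5099 libraries were lowest, with a log2 fold change of -0.42 (SE 0.0528, edgeR adjusted p 7.84e-07) against Sen(IR), under the fold limit, and was called at a log2 fold change of -0.65 (SE 0.0525, edgeR adjusted p 1.58e-10) against Prol. PGM1, the main phosphoglucomutase, and GBE1, the branching enzyme, had log2 fold changes of 0.41 (SE 0.0925) and 0.42 (SE 0.0564) in senescence, below the fold limit.

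**Figure D4:**
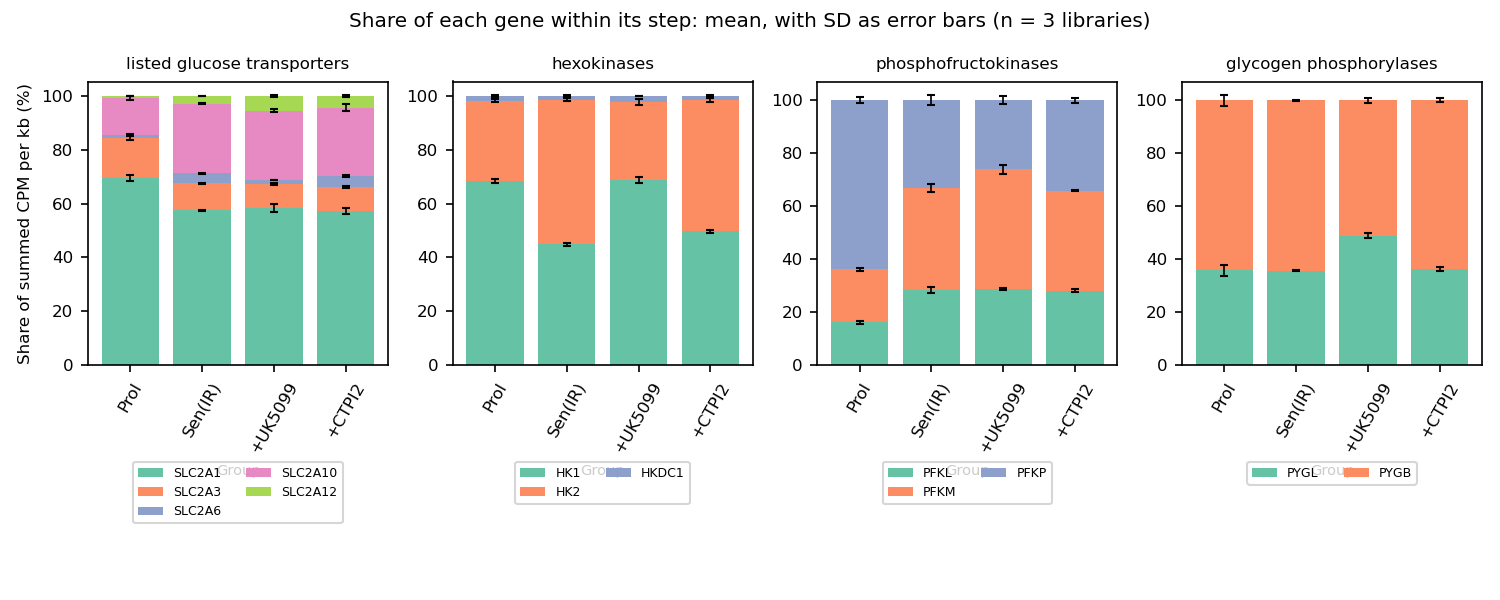
Stacked bars of the share of each gene in the summed CPM per kilobase of exon of its step, as the mean of 3 libraries with SD, for 4 steps and 4 groups. The share of HK2 is larger in Sen(IR) and with CTPI2 than in Prol or with UK5099. PFKP shrinks from Prol to the irradiated groups, and PYGL reaches 48.8 ± 0.909% with UK5099. With the longest transcript as length, the order turns for HK1 and HK2 in Sen(IR) and for PYGL and PYGB with UK5099. It also turns for PFKL and PFKP with UK5099, and for PFKM and PFKP in Sen(IR) and with CTPI2.

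Read gene by gene, the calls in the 2 main comparisons, which share the Sen(IR) libraries, fell into a few patterns. HK2, ALDOA, GYS1 and SLC2A6 were higher in Sen(IR) than in Prol and lower with UK5099 than in Sen(IR). ENO1 and PFKP were lower in both, and SLC2A12, PFKFB2 and ALDOC higher in both. TPI1, PGK1, PGAM1, PKM, PFKFB4 and ENO3 were called lower and PYGL higher with UK5099, and none of these 7 in Sen(IR) against Prol. SLC2A10 and TIGAR (higher) and PGM2 (lower) were called in Sen(IR) against Prol and not with UK5099, and 14 of the 33 genes were called in neither. These patterns list calls and do not test whether the 2 comparisons differ for a gene. Directly against Prol, UK5099-treated senescent cells had HK2 at 0.034, GYS1 at -0.092 and ALDOA at -0.25, none called, while PKM (-0.65), TPI1 (-0.84), PGAM1 (-0.53) and PGK1 (-0.54) were lower, the last 2 under the fold limit with upper-quartile scaling (-0.39 and -0.40) and PGAM1 also without Prol replicate 3 (-0.48).

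With CTPI2 the fitted log2 fold changes of the 33 genes against Sen(IR) ran from -0.39 (PFKFB4) to 0.61 (SLC2A12). HK2 gave a log2 fold change of -0.15 (SE 0.0599, edgeR adjusted p 0.57), PYGL 0.096 (SE 0.065, edgeR adjusted p 0.84) and ALDOA -0.018 (SE 0.0545, edgeR adjusted p 0.97). The direct test of UK5099 against CTPI2 called 14 genes. Higher with UK5099 were PFKFB2, ALDOC and PYGL, and lower were SLC2A6, HK2, PFKP, GYS1 and 7 genes from ALDOA to PKM, with HK2 at -1.26 and ALDOA at -0.84. These 14 calls were also made with each library left out and under the other tools and scalings tried, other than the limit of 1 on the log2 fold change.

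Neighbouring pathways were read from 7 lists written for this purpose. Their counts stand beside the same 24.8% higher and 22.4% lower of all genes in senescence and 8.76% higher and 12.1% lower with UK5099. Of the other glucose transporters, 4 of 11 had enough counts to test. These 4 rose in senescence (SLC2A9 1.96, SLC2A13, a proton myo-inositol carrier, 1.69, SLC2A11 1.59 and SLC2A8 0.76). With UK5099 0 of the 4 were called by edgeR, and 2 had an unadjusted p below 0.05, beside 8391 of the 16251 genes tested. Of the other glycolytic and gluconeogenic enzymes, 7 of 22 were tested, and 4 rose and 2 fell in senescence. G6PC3, a glucose 6-phosphatase, rose by a log2 fold change of 1.20 (SE 0.0725) and BPGM, which makes 2,3-bisphosphoglycerate, by a log2 fold change of 0.73 (SE 0.0597). PCK2, mitochondrial phosphoenolpyruvate carboxykinase, fell in senescence (-1.19 in log2 units, SE 0.136) and with UK5099 (-0.63 in log2 units, SE 0.152), and GPD2, mitochondrial glycerol phosphate dehydrogenase, fell in senescence (-0.74 in log2 units, SE 0.0762). GALM, which interconverts glucose anomers, rose with UK5099 (0.61 in log2 units, SE 0.0839).

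Among 23 tested genes of other glycogen functions, 7 rose (30.4%) and 2 fell (8.7%) in senescence, and 3 rose (13%) and 2 fell (8.7%) with UK5099. PPP1R3C, a subunit that directs protein phosphatase 1 to glycogen, was at 24.3, 30.1 and 24.2 CPM in the 3 Prol libraries, 154, 153 and 151 in Sen(IR), 98.7, 105 and 101 with UK5099 and 129, 120.4 and 137 with CTPI2. It rose by a log2 fold change of 2.55 (SE 0.0723, edgeR adjusted p 2.35e-18) in senescence and fell with UK5099 (-0.59 in log2 units, SE 0.0653, edgeR adjusted p 1.51e-07). GAA, the lysosomal glucosidase of glycogen, rose by a log2 fold change of 1.65 (SE 0.0804) and PGM2L1, which makes glucose 1,6-bisphosphate, by a log2 fold change of 1.62 (SE 0.113) in senescence, with 0.11 and 0.062 with UK5099. GYG2, a glycogenin that primes glycogen, and STBD1, which tethers glycogen to membranes, rose with UK5099 by a log2 fold change of 0.52 (SE 0.0845) and 0.53 (SE 0.196). STBD1 was low, at 2.45, 2.56 and 2.7 CPM in the Sen(IR) libraries and 4.39, 3.04 and 3.72 with UK5099. Its exons share 88.5% of their bases with FAM47E-STBD1 on the same strand. Reads shared with that gene are uncertain where only unique reads were counted.

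In the pentose phosphate pathway, which branches from glucose 6-phosphate, the transketolase gene TKT and the transaldolase gene TALDO1 fell in senescence, with log2 fold changes of -0.95 and -0.58, and H6PD, an enzyme of the endoplasmic reticulum, rose, with 1.07. PGD, 6-phosphogluconate dehydrogenase, was at 451, 483 and 484 CPM in the 3 Prol libraries, 471, 472 and 463 in Sen(IR), 839, 822 and 824 with UK5099 and 531, 569 and 511 with CTPI2 and rose with UK5099 by a log2 fold change of 0.82 (SE 0.0487, edgeR adjusted p 4.56e-12). At the pyruvate end, 2 of 9 genes fell with UK5099. LDHA, lactate dehydrogenase A, was at 1242, 1282 and 1370.5 CPM in the 3 Prol libraries, 832, 844 and 841 in Sen(IR), 366, 394 and 365 with UK5099 and 847, 835 and 802 with CTPI2, and its log2 fold changes were -0.63 (SE 0.049, edgeR adjusted p 1.20e-10) in senescence and -1.16 (SE 0.0497, edgeR adjusted p 1.54e-14) with UK5099. SLC16A3, the lactate exporter MCT4, rose in senescence (1.03 in log2 units, SE 0.0642, edgeR adjusted p 2.39e-12) and fell with UK5099 (-0.92 in log2 units, SE 0.0639, edgeR adjusted p 7.67e-11).

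Hypoxia-inducible genes outside glycolysis were followed because several members share that regulator. Of 13 tested, 11 rose in senescence and 6 fell with UK5099, with medians of 0.99 and -0.23. P4HA1, a collagen prolyl hydroxylase, was at 248, 279.6 and 259 CPM in the 3 Prol libraries, 611, 607 and 610.4 in Sen(IR), 237, 231 and 217 with UK5099 and 536, 558 and 522 with CTPI2, so that its UK5099 libraries lay below those of Prol, with a log2 fold change of -1.42 (SE 0.0525, edgeR adjusted p 1.23e-15) against Sen(IR). VEGFA gave a log2 fold change of 0.66 (SE 0.0789) in senescence and -1.41 (SE 0.0817) with UK5099, and CA12, a carbonic anhydrase, gave a log2 fold change of 1.57 (SE 0.108) and -1.38 (SE 0.105). NDRG1, a stress-responsive gene, gave a log2 fold change of -0.96 (SE 0.0503) with UK5099. BNIP3, a mitophagy receptor, gave a log2 fold change of -0.64 (SE 0.0534) and CA9, another carbonic anhydrase, gave a log2 fold change of -1.32 (SE 0.476), both with UK5099. CA9 was near the detection range, at 0.712, 0.521 and 0.441 CPM in the Sen(IR) libraries and 0.248, 0.223 and 0.194 CPM in those given UK5099. The other 7 tested genes of the list were not called there. ANGPTL4 rose by a log2 fold change of 4.08 (SE 0.146) and BNIP3L by a log2 fold change of 1.71 (SE 0.0756) in senescence and stood at 0.22 and 0.23 with UK5099, and ADM at 0.26.

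Regulators of glycolytic genes were the last list, with 4 of 13 tested genes higher and 2 lower in senescence, and 1 higher and 2 lower with UK5099. TXNIP, the glucose-induced arrestin that restrains glucose uptake, was at 222, 250.1 and 228 CPM in the 3 Prol libraries, 1386, 1359 and 1342 in Sen(IR), 2044, 1918 and 1863 with UK5099 and 1353, 1418 and 1329.8 with CTPI2. It rose by a log2 fold change of 2.54 (SE 0.0546, edgeR adjusted p 2.73e-20) in senescence and with UK5099 by a log2 fold change of 0.51 (SE 0.0513, edgeR adjusted p 3.13e-08), barely past the fold limit. ARRDC4, a related arrestin, rose by a log2 fold change of 3.48 (SE 0.0702) in senescence. MYC fell in senescence (-0.84 in log2 units, SE 0.0747) and had a log2 fold change of -0.48 (SE 0.0793) with UK5099, under the fold limit. KLF10, a TGF-beta-induced and glucose-responsive repressor, rose by a log2 fold change of 0.61 (SE 0.0715) in senescence and fell with UK5099 (-1.27 in log2 units, SE 0.0736). HIF1A, the oxygen-sensitive subunit, had a log2 fold change of -0.46 (SE 0.0533) and -0.29 (SE 0.0534), neither called, and its protein was not measured here. With CTPI2 0 of the 77 tested genes of these 7 lists were called by edgeR, and DESeq2 called 0. By edgeR 10 of the 77 had an unadjusted p below 0.05, beside 1182 of the 16251 genes tested.

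**Figure D5:**
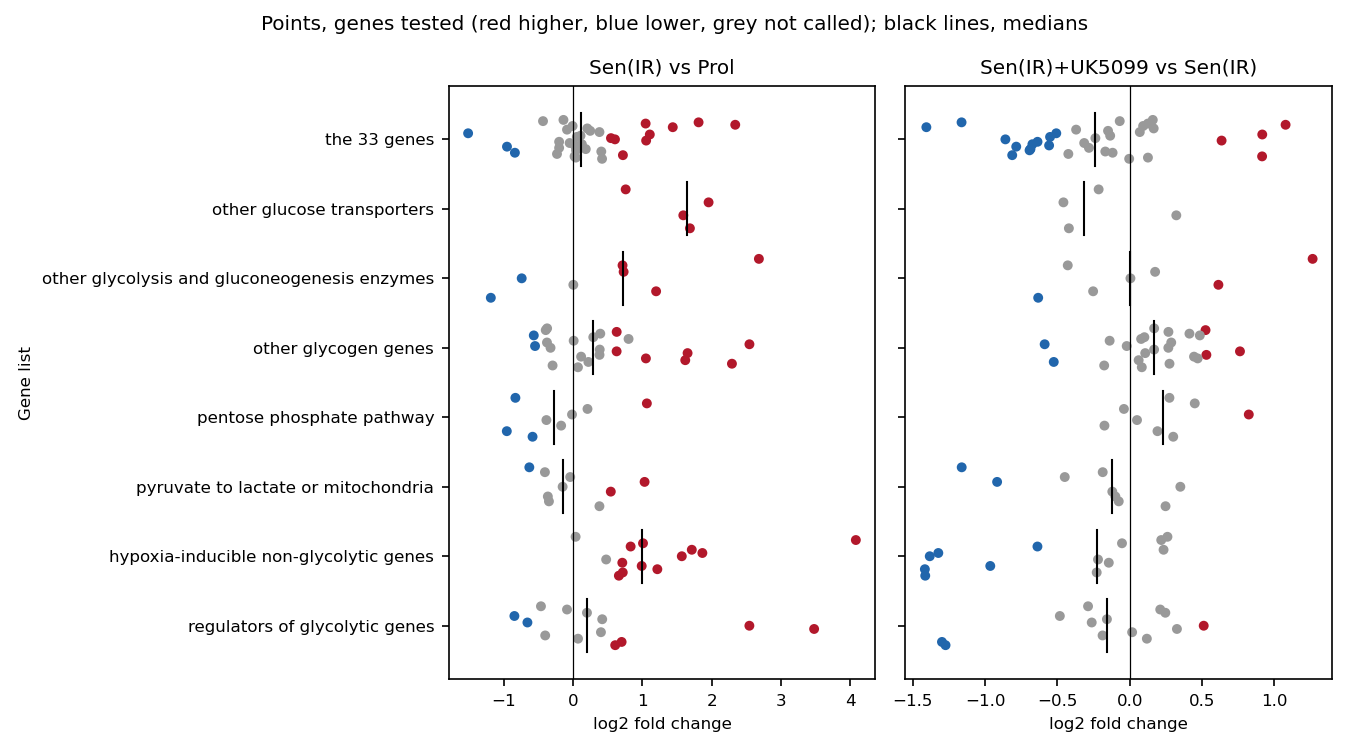
log2 fold changes of the tested genes (points, coloured by call) and the median (black line) for the 33 genes and 7 neighbouring lists in Sen(IR) against Prol and with UK5099. The hypoxia-inducible list has 11 red points on the left panel and 6 blue points on the right panel, and the 33 genes have 12 blue and 4 red points on the right panel.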

How the data were processed

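Per the methods and the submitters' processing notes, the authors trimmed the reads (Trimmomatic 0.36), aligned them to GRCh38 (STAR 2.5.2b) and counted unique exon reads per gene (featureCounts, Subread 1.5.2). The deposited table holds these raw counts for 57500 genes in 12 libraries. Strandedness is not given in the sources used here. The 33 genes and the lists were chosen with earlier results of these data known. Named genes of the 7 lists came from the at most 3 called per direction with largest change and mean log2 CPM above 1. Some of these were not named, such as PPP1R3G, PGM3, ADPGK and MPC2. Other genes were named after their values were seen. Counts were fitted with edgeR 4.0.16 in R 4.3.3 (filterByExpr, TMM, glmQLFit over all 12 libraries in 4 groups, no replicate term), which left 16251 genes with 99.9% of the counts. Alternatives were DESeq2 1.42.0, scaling by RLE or upper quartile, no filter on low counts, fits of 2 groups, a replicate block, a limit of 1 on the log2 fold change, an unadjusted p and leaving out each library. Replicate pairs differed by 2.28 to 13.6 times the sampling noise, and the common dispersion of 0.00374 gives a variation of 6.12% between replicates. On simulated counts with 200 changed genes the test was checked before use. Levels per length used the exon union of GENCODE v44. The count of called genes in the pentose phosphate list is not reported here.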

Additional observations from a re-analysis of the deposited data

How the results depend on the processing

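The number of called genes among the 33 stayed within 1.5 times its value (12 in Sen(IR) against Prol, 16 with UK5099, 1 with CTPI2, 14 for UK5099 against CTPI2 and 15 for UK5099 against Prol) under each alternative but a limit of 1 on the log2 fold change, which left 7, 3, 0, 2 and 6. With that limit 4030, 1511, 11, 1417 and 4967 of the 16251 genes tested were called. With the limit of 0.5 these were 7677, 3386, 27, 3236 and 8632. Leaving out each library gave 12 to 12, 13 to 16, 1 to 1, 14 to 15 and 14 to 18 of the 33. With a replicate block the counts were 12, 16, 1, 14 and 15. Same-numbered libraries did not deviate together (correlations of -0.129 to 0.075), which cannot show whether they were prepared together. The 12, 1 and 14 calls of Sen(IR) against Prol, CTPI2 and UK5099 against CTPI2 were made under each alternative tool, scaling, filter and left-out library, as were 12 of the 16 with UK5099 (not PFKP, PFKFB4, ALDOC and ENO3) and 12 of the 15 against Prol (not SLC2A3, PGK1 and PGAM1). No log2 fold change of a gene with an adjusted p below 0.05 changed sign. Upper-quartile scaling moved the median of all genes by 0.121 in Sen(IR) against Prol and by 0.140 in UK5099 against Prol, where it gave 9 higher and 6 lower of the 33 instead of 6 and 9. Among isozyme shares, the difference between Sen(IR) and Prol in PYGL (-0.22 points) ranged from -1.36 to 0.544 and that of SLC2A10 with UK5099 (-0.11 points) from -0.428 to 0.188 as libraries were left out, so these differences have no direction. For HK2, PFKP, PYGL, ENO1, SLC2A10 and SLC2A1, the longest transcript as gene length reversed no share difference in Sen(IR) against Prol or with UK5099. It turned the order of HK1 and HK2 within Sen(IR) (57.1% and 41.9%, against 44.9% and 53.8% by the exon union). PYGL and PYGB turned with UK5099 (58.84% and 41.16%, against 48.8% and 51.2%), as did PFKL and PFKP (21.6% and 31.69%, against 28.55% and 26.14%). PFKM and PFKP turned in Sen(IR) (39.15% and 39.74%, against 38.49% and 33.24%) and with CTPI2 (38.33% and 40.75%, against 37.77% and 34.14%).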
